A study of Mus musculus with 12 samples.

Results

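The wildtype newborn mouse brain was described by the absolute level of its transcripts. The members were chosen by genotype alone: the 6 arrays labelled KIS +/+, of 12 in the series, each from the total brain of 1 newborn female and each from a different litter. KIS is the kinase encoded by Uhmk1. The other 6 arrays, of KIS -/- littermates, were not used, and no genotypes were compared. The line had been bred onto C57BL6/N, per the methods, and no treatment was given. Brain, litter and array cannot be told apart, since each litter gave 1 wildtype brain and each brain 1 array. RNA was extracted from whole powdered brains, so that fewer cells of a type and less RNA per cell cannot be told apart in any of the values.

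The arrays were Affymetrix mouse exon arrays, which carry several probesets, each a small group of probes, along every gene. The signal is a probeset's intensity in the deposited table, on a linear scale with no unit. The signal of a gene was the median over its main probesets on 1 array, and values are given as the mean ± SD over the 6 brains, or brain by brain in the order of litters 1 to 6. In all, 221417 of 229581 probesets measured exons of genes with a symbol, and they covered 17550 symbols with a median of 10 probesets each. A signal depends on how well its probes bind as well as on the amount of RNA. The probesets of 1 gene typically spanned a 2.17-fold range between their lower and upper quartiles. When the probesets of a gene were split into alternate sets of equal size, the gene signals of both sets differed by a median of 1.23-fold, and by 1.78-fold at the 90th percentile of 4293 genes. Levels of different genes are therefore given as a description and carry this error, whereas the SD covers only the spread between brains.

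At birth the mouse brain is dominated by neurons that have just been produced and are extending axons and dendrites. Growing processes need large amounts of tubulin and actin, the subunits of microtubules and filaments, and of the proteins that regulate their assembly. Radial glia and young astrocytes are present, most oligodendrocytes have not yet formed myelin, and synapses are only beginning to be built.

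Genes tied to the labels were read first. Uhmk1 had signals of 1754, 1951, 1699, 1930.1, 1673 and 1859.9 and was above the intron controls in every brain, in brains labelled KIS +/+. The KIS -/- arrays were not read, so that these values alone cannot check the genotype label. Of the genes on the Y chromosome, which mark male tissue, Ddx3y, Eif2s3y and Kdm5d had mean signals of 33.7 ± 5.99, 23.9 ± 6.63 and 46.3 ± 8.19, all below the control medians of 107 to 125, in brains labelled female. Gene signals of any 2 brains correlated with a Pearson r of 0.989 to 0.994 across genes, which are not independent replicates, and no 2 arrays held identical values.

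Background was read from 5222 control probesets placed in introns of the same arrays, whose medians were 107 to 125. The threshold for a gene was the 95th percentile of these controls on each array, which lay between 655 and 749. A gene signal above it in all 6 brains was found for 5604 genes, 31.9% of those measured. At or below it in every brain were 10427 genes, 59.4%, and 1519 genes were above it in 1 to 5 brains. A gene at or below the threshold may still be transcribed. By construction of the limit 5% of intron probesets lie above it, so that a gene above it may also be background. The limit comes from single probesets, whereas a gene signal is a median over its probesets. The number of genes above the threshold in a single brain was lowest in litter 5, with 5930, and highest in litter 1, with 7039. The brain of litter 1 had the lowest threshold (655) and the second highest median gene signal (440.0), and the part of these in its count was not tested.

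**Figure D1:**
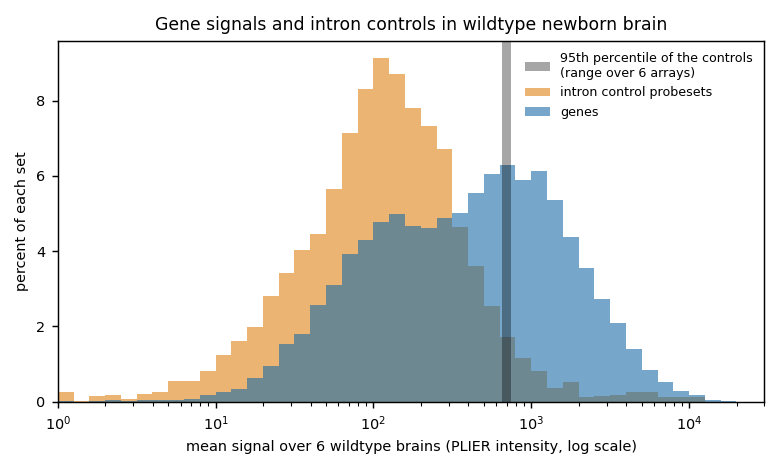
Percent of the 17550 genes (blue) and of the 5222 intron control probesets (orange) at each mean signal over the 6 wildtype brains, on a logarithmic axis in steps of 0.1. The grey band is the 95th percentile of the controls, from 655 to 749 over the arrays; the controls peak well below the band, and the genes form a broad shoulder there and a peak around the band.

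The median signal of the genes above the threshold was 1591, against 418 for all genes. Of these genes 784 had mean signals below 1000, 2780 (49.6%) between 1000 and 2000, 1471 (26.2%) between 2000 and 4000, and 479 (8.55%) between 4000 and 8000. Only 90 genes (1.61%) reached 8000 or more. By chromosome, the share of genes above the threshold in all brains lay between 23.9% on chromosome 7 and 37.4% on chromosome 18. It was 31.9% on the X chromosome (192 of 602 genes), and none of 6 genes placed on the Y chromosome was above.

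Tubulin, actin, core histone and ubiquitin genes were among those with the highest signals. Genes were ranked where the table gave at least 4 probesets on 1 chromosome, which held for 15214 symbols. The first 30 had mean signals from 10301 to 17710, the next gene stood at 10141, and 24 of the 30 were among the first 30 in each of the 6 brains. Tubulins supplied 7 of them, core histones 4 and stathmins 2. The shares of these groups among all ranked genes were not counted. Of the 30 genes, 10 belonged to none of the 11 classes counted, as did 67 of the first 100.

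Tuba1b, an alpha tubulin, had signals of 15933, 15662, 15996, 16044, 16394 and 15103 in the 6 brains. Actb, cytoplasmic beta actin, had signals of 15718, 15383, 15014, 15300.2, 15712 and 15321, a spread of less than 1000 between the highest and the lowest brain. Eef1a1, the elongation factor that brings amino-acyl tRNA to the ribosome, reached 14701 ± 379. These genes were bright in every brain, but most of their probesets also match other places in the genome: 0 of 5 for Tuba1b, 2 of 10 for Actb and 0 of 14 for Eef1a1 match 1 place only. The same held for the histone genes Hist1h2ae (17710.3 ± 672), Hist1h2af (17675 ± 762), Hist1h2ac (16808 ± 664) and Hist1h3g (10472 ± 517), which are members of clusters of nearly identical genes, and for the ubiquitin gene Ubb (16426 ± 433). Their levels may be those of a family rather than of the gene named. Dynlt1a, at 10624 ± 390.0, is placed on chromosome 6 by the table and on chromosome 17 by RefSeq, and its identity is uncertain. Among the first 100 genes the same was true of Hspa8 and Tpt1.

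A second set of top genes rested mainly on probesets that match 1 place. Gnb1, a beta subunit of heterotrimeric G proteins, had signals of 12882, 13509.8, 12871, 12944, 13779.9 and 13762, with 12 of 13 probesets of this kind. Dpysl2, a collapsin response mediator that binds tubulin dimers in growing axons, was the steadiest of the top genes measured this way, with signals of 13190.5, 13319, 13008, 12846, 12945 and 13263 and 14 of 15 such probesets. Stmn2, the neuronal stathmin of growth cones, had signals of 11942, 11338, 11477, 10439, 11837 and 12024, lowest in litter 4. Ttr, the thyroid hormone carrier secreted by the choroid plexus, had signals of 11169.5, 12260.0, 10769, 10296, 12004 and 10925, also lowest in litter 4. Fabp7, the fatty acid binding protein of radial glia, had the widest range of signals among them, with signals of 10644, 10557, 11216, 9221, 10554 and 12264. Its lowest brain was that of litter 4 and its highest that of litter 6, and the others lay within 700 of each other. Bsg, a transmembrane glycoprotein of vessels and neurons, had a mean of 11345 ± 493, Gpm6a, a neuronal membrane glycoprotein, 10939.8 ± 313, and Mtap1b (Map1b), the microtubule-associated protein of young axons, 10827 ± 184. Ppp2r1a, the scaffold of protein phosphatase 2A, had 11021 ± 402, and Atp5d, a subunit of the mitochondrial ATP synthase, 10301 ± 489.

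When only probesets matching 1 place were used, 12 of the 30 genes stayed among the first 30, and the other 18 had fewer than 4 such probesets and were not ranked. The list was then led by Bsg (13885), Dpysl2 (13197), Gnb1 (13126), Eef2 (12296), Fabp7 (11578) and Ppp2r1a (11485). It also took in the G protein subunit Gnao1 (10965), the membrane-shaping protein Rtn3 (10739.5), the chaperone Hsp90ab1 (10454), the desaturase Scd2 (10136), the transcription factor Nfix (9644) and Dcx (8824), a microtubule protein of migrating neurons.

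**Figure D2:**
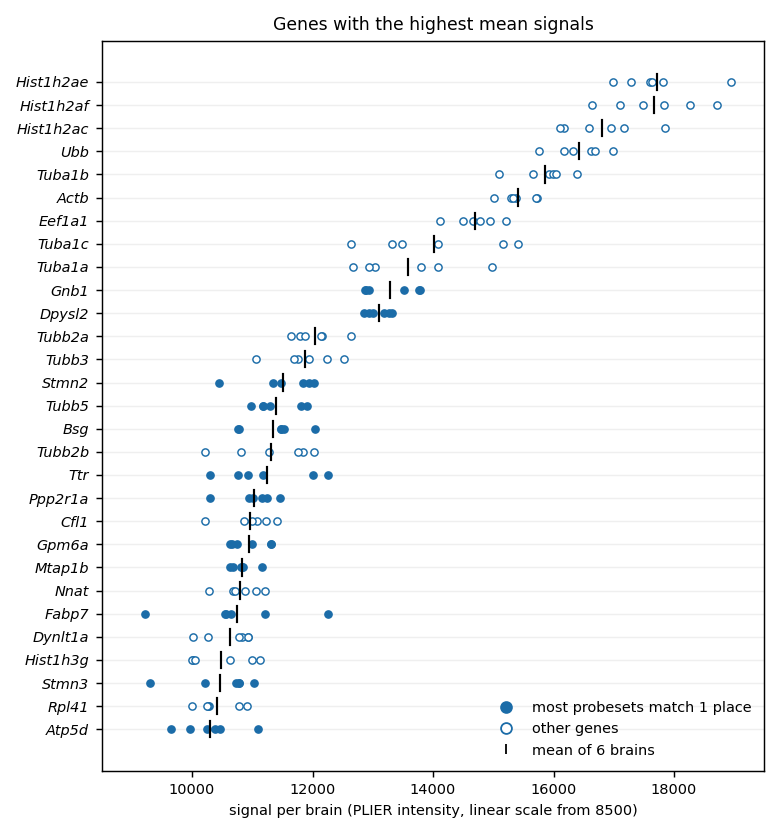
Signal in each of the 6 wildtype brains (points) and their mean (bar) for 29 of the 30 ranked genes with the highest mean, on a linear axis that does not start at 0. Filled points mark genes of which most probesets match 1 place; the 9 brightest genes are all open, and Gnb1 and Dpysl2 are the brightest filled ones.

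The promoters of the genes above the threshold had more CpG dinucleotides than those of the genes below it. RefSeq promoter windows of 300 bases (250 before and 50 after the start, assembly GRCm38.p6) were matched by name to 13538 genes. The CpG ratio is the number of CG dinucleotides over that given by the C and G content of the window. It was at least 0.6 in 79.5% of 4435 windows of genes above in all brains and in 74.8% of 1193 windows of genes above in 1 to 5 brains. It was so in 36.8% of 7910 windows of genes above in none. Of all 13538 matched windows 54.1% passed that ratio, and of all 27025 mouse windows 36.5%. Olfactory and vomeronasal receptor genes, which make up 920 of the matched windows, passed it in 0.543%, and without them the genes above in none passed it in 41.5% of 6994 windows. The letters TATAAA, searched on the strand of the gene in the 50 bases before the start, stood in 1.22% of the windows of genes above in all brains, in 4.80% of those above in none, in 3.34% of all matched windows and in 2.88% of all mouse windows. Of the 22 windows matched to the 30 brightest genes, 2 (9.09%) held them. These shares are descriptions of letters, not of sites in use.

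The 150 bases before the start are shown for 3 genes with high signals in all brains, Gnb1, Tubb3 and Ina, and for 2 muscle genes, Acta1 and Myl1, which were above the threshold in only 1 brain and are described at the end. Each runs 5′ to 3′ on the strand of its gene, and capitals mark CG dinucleotides and, in Acta1, also TATAAA. They lie in GRCm38.p6 at chr4:155491211-155491360 (+) for Gnb1, chr8:123411403-123411552 (+) for Tubb3, chr19:47014531-47014680 (+) for Ina, chr8:123894776-123894925 (-) for Acta1 and chr1:66945057-66945206 (-) for Myl1.
Gnb1: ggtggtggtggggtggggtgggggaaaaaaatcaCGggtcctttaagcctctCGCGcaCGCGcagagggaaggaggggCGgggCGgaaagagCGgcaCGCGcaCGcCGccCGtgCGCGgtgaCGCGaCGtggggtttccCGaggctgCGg
Tubb3: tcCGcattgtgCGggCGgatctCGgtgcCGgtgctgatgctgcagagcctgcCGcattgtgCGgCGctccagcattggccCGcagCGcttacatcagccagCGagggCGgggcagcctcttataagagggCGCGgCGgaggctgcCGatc
Ina: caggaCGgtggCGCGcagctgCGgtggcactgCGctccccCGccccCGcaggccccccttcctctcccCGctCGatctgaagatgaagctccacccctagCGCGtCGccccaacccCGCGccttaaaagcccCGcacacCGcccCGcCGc
Acta1: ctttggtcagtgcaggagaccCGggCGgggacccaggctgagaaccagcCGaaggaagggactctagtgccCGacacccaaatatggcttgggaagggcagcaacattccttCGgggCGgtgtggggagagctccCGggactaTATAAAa
Myl1: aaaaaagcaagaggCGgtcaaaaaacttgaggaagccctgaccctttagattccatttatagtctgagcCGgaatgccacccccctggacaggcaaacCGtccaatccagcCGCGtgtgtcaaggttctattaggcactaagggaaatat
The stretches of Gnb1, Tubb3 and Ina hold 20, 16 and 18 CG dinucleotides, and those of Acta1 and Myl1 hold 7 and 5. TATAAA begins 7 bases before the listed start of Acta1 and is not in the searched window of the other 4 genes.

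Levels were next compared inside 33 gene families, each ordered by mean signal. Neighbours in the order were compared within brains on the scale of log2(signal + 16). Of 201 neighbouring pairs, 143 kept the same order in all 6 brains, which gives an exact two-sided sign-flip p of 0.03125, the smallest that 6 brains allow, and a Benjamini-Hochberg adjusted p of 0.0439 over the 201 pairs. The order and the test rest on the same 6 brains. Of the 143 pairs, 59 also differed by more than the 1.78-fold disagreement between alternate sets of a gene's probesets. Probe binding could set the order in any of these pairs, most readily in the other 84. Differences below are means ± SD over the 6 brains on the log2 scale.

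Among alpha tubulins, Tuba1b (15855 ± 437), Tuba1c (14016 ± 1087) and Tuba1a (13583 ± 869.7) had the highest medians over probesets. The place of Tuba1c rested on that summary, since its lower quartile of probesets was at 189 and with the mean over probesets it lay 2.57 below Tuba1b on the log2 scale, against 0.18 with the median. Tuba1c and Tuba1a kept their order in only 5 brains (difference 0.04 ± 0.06). Tuba4a (3605 ± 196) lay below Tuba1a by 1.91 ± 0.13 in all 6 brains. Tuba3a, a form best known from testis, was above the controls in 1 brain (487 to 797), and Tuba8 and Tuba3b in none. The beta tubulins Tubb2a (12039.7 ± 353), Tubb3, the neuron-specific form (11869 ± 503), Tubb5 (11392 ± 378) and Tubb2b (11317 ± 700.1) could not be ordered, as each neighbouring pair changed order between brains. For Tubb2a over Tubb3 this rested on the summary, as the difference was 0.77 with 1-place probesets, 0.145 with the mean over probesets and -0.053 with the 75th percentile, each with 1 order in all brains. Tubb4 (7909 ± 446) and Tubb2c (3458 ± 179.6) followed, and Tubb6 stood near the threshold (482 to 713). Cytoplasmic Actb exceeded Actg1 (9683 ± 631) by 0.67 ± 0.09. The smooth muscle actin Acta2 ranged from 512 to 1016 around the threshold.

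The collapsin response mediators, which link guidance signals to microtubules in the growth cone, were all above the controls (5 of 5, against 31.9% of all genes). Their order was Dpysl2 (13095 ± 189), Dpysl3 (9459 ± 297), Crmp1 (8689 ± 342), Dpysl5 (8355 ± 398) and Dpysl4 (1422 ± 79). Dpysl2 exceeded Dpysl3 by 0.47 ± 0.04 in all 6 brains, while Crmp1 and Dpysl5 changed order in 1 brain. Of the growth cone and membrane proteins 9 of 9 measured members were above, against the same 31.9%. They ran from Rtn4 (2356 ± 179.8), known as an inhibitor of axon growth, to Gpm6a (10939.8 ± 313). Gap43 (5376 ± 274) and Basp1 (4932 ± 126), both abundant on the inner face of the growth cone membrane, lay between. Among intermediate filaments, Ina, the alpha-internexin of young neurons (8676 ± 483), exceeded Vim, the vimentin of radial glia (6902 ± 407), by 0.33 ± 0.08. The neurofilament genes followed in the order Nefl (3087 ± 281) and Nefm (1397 ± 134), with a difference of 1.14 ± 0.17. Nefh, the heavy neurofilament of mature axons (481 ± 30), Gfap of astrocytes (489 ± 58.9) and Nes of progenitors (398 ± 50.1) were not above the controls in any brain.

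Metabolic families were each led by 1 or a pair of the isoforms measured. Hk1 (2216 ± 174) was the only one of 3 hexokinases measured that was above the controls (33.3%, near the 31.9% of all genes). Hk2 stood at 137 ± 10.2, measured by 25 probesets that all match 1 place. The brain creatine kinase Ckb (4212 ± 208) exceeded the mitochondrial Ckmt1 (1222 ± 165) by 1.78 ± 0.13, and Ckmt2 stood at 61.3 ± 6.11. Phosphofructokinase genes were ordered Pfkp (3055 ± 238), Pfkm (2196 ± 174) and Pfkl (1054 ± 162) in all 6 brains. With the mean over probesets Pfkp exceeded Pfkm by only 0.053 on the log2 scale, and not in every brain. The aldolases Aldoc (5114 ± 317) and Aldoa (4796 ± 391) were close to each other, and their order turned with 1-place probesets (-0.64), with the mean over probesets (-0.13) and with the 75th percentile (-0.53). Ldhb, a lactate dehydrogenase of oxidative tissues, stood at 2399.6 ± 146, and testis Ldhc at 58.1 ± 10.5. Ldha was not measured, so that the leading form of this family cannot be told. Eno1 (6237 ± 512) stood above the neuronal enolase Eno2 (2446 ± 146) by 1.34 ± 0.10, but only 1 of 14 probesets of Eno1 matches 1 place and with that probeset alone the difference was -4.47. Cox4i1 (2289 ± 159) and Cox6a1 (7514 ± 315), the common forms of 2 cytochrome oxidase subunits, were above the controls, and their alternatives Cox4i2 (346 ± 30.5) and Cox6a2 (409 ± 44.1) were not.

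Several genes of transmitter release had high signals. Snap25 (8885 ± 432) and Vamp2 (7659 ± 438), the plasma membrane and vesicle SNAREs of neurons, led their family. Their relatives did not divide in 1 way. Vamp7 (1574), Snap29 (1452) and Snap23 (1200) were above the controls in all brains. Vamp1 (703 to 906), Vamp3 (698 to 843), Vamp8 (200.4 to 290.3) and Stx4a (170.2 to 226) lay around or under the threshold. Among 15 synaptotagmins measured, the calcium sensors and relatives of synaptic vesicles, 9 were above the controls (60.0%, against 31.9% of all genes). Syt1 (6869.9 ± 527) and Syt5 (6170.0 ± 264) led and changed order in 1 brain, though not with the mean or the 75th percentile over probesets (0.23 and 0.53 on the log2 scale), and Syt2, a calcium sensor best known from adult hindbrain synapses, was not above (291 ± 31.6). The synapsins Syn1 (4043 ± 192), Syn3 (3369 ± 422) and Syn2 (2082 ± 132) were all above. Of the axonal transport motors, Kif1a (6523 ± 182) exceeded Kif1b (4919.9 ± 175), and Kif5c (3366 ± 161) exceeded Kif5a (2918 ± 149) by 0.21 ± 0.10. Kif1c was not above (371 ± 26.9).

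Among the transcription factors, Sox11, which acts in newly formed neurons (4973 ± 427), exceeded Sox2 of neural stem cells (2019.7 ± 159.5) by 1.29 ± 0.21. Sox9 (1509 ± 112) and Sox4 (1405 ± 124) could not be ordered, 3 brains going each way. Of 18 Sox genes measured, 7 were above in all brains (38.9%, near the 31.9% of all genes), and Sox17 (198 ± 26.8), Sox15 (144 ± 21.2) and Sox30 (113 ± 20.3) were the lowest. The nuclear factor I genes stood in the order Nfix (10012 ± 523), Nfib (6006 ± 219), Nfia (3933 ± 236) and Nfic (837 ± 43.7) in all 6 brains, with 4.63-fold between the last pair. The Id genes, which block basic helix-loop-helix factors, stood in the order Id2 (4422 ± 416), Id4 (1794 ± 136), Id3 (591 ± 66.3) and Id1 (409 ± 29.9), and only Id2 and Id4 were above the controls.

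Axon guidance genes were led by receptors in 3 groups. The Slit receptors Robo1 (4234 ± 192) and Robo2 (3772 ± 274) exceeded Slit1 (1615 ± 137) and Slit2 (828 ± 116), and Robo2 exceeded Slit1 by 1.22 ± 0.14. Robo3 (165 ± 11.2) and the vascular Robo4 (364 ± 30.7) were not above. Neo1 (4902 ± 292) exceeded Dcc (2122 ± 234), both receptors of netrins, by 1.21 ± 0.22, while the ligand Ntn1 ranged from 650.2 to 801 and passed the threshold in 2 brains. The class 3 semaphorin receptors Nrp1 (1829 ± 99.3) and Nrp2 (1457 ± 62.8) led their ligands Sema3f (1081 ± 109) and Sema3a (1041 ± 70.9). Against 31.9% of all genes, 7 of 14 Eph receptors were above, led by Epha4 (2478 ± 149), Epha7 (2191 ± 221) and Epha5 (1921 ± 132), and of the ephrins 5 of 7, led by Efnb3 (2259 ± 192) and Efnb2 (1776 ± 84.8). The epithelial Epha1 (74.1 ± 11.7) and Epha2 (152 ± 8.51) were lowest.

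The adult globins were high and the embryonic ones low. Hba-a1 had signals of 9047, 7054, 7817, 8815, 8254 and 7640.2 and Hbb-b1 of 8678, 7437, 6865, 7462, 8048 and 7154. Both were highest in litter 1, and the pair changed order in 1 brain, though not with the mean over probesets (0.71) or the 75th percentile (0.35 on the log2 scale). The embryonic globins Hba-x (277 ± 39.6), Hbb-y (80.8 ± 22.4) and Hbb-bh1 (40.2 ± 10.3) were not above the controls in any brain.

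**Figure D3:**
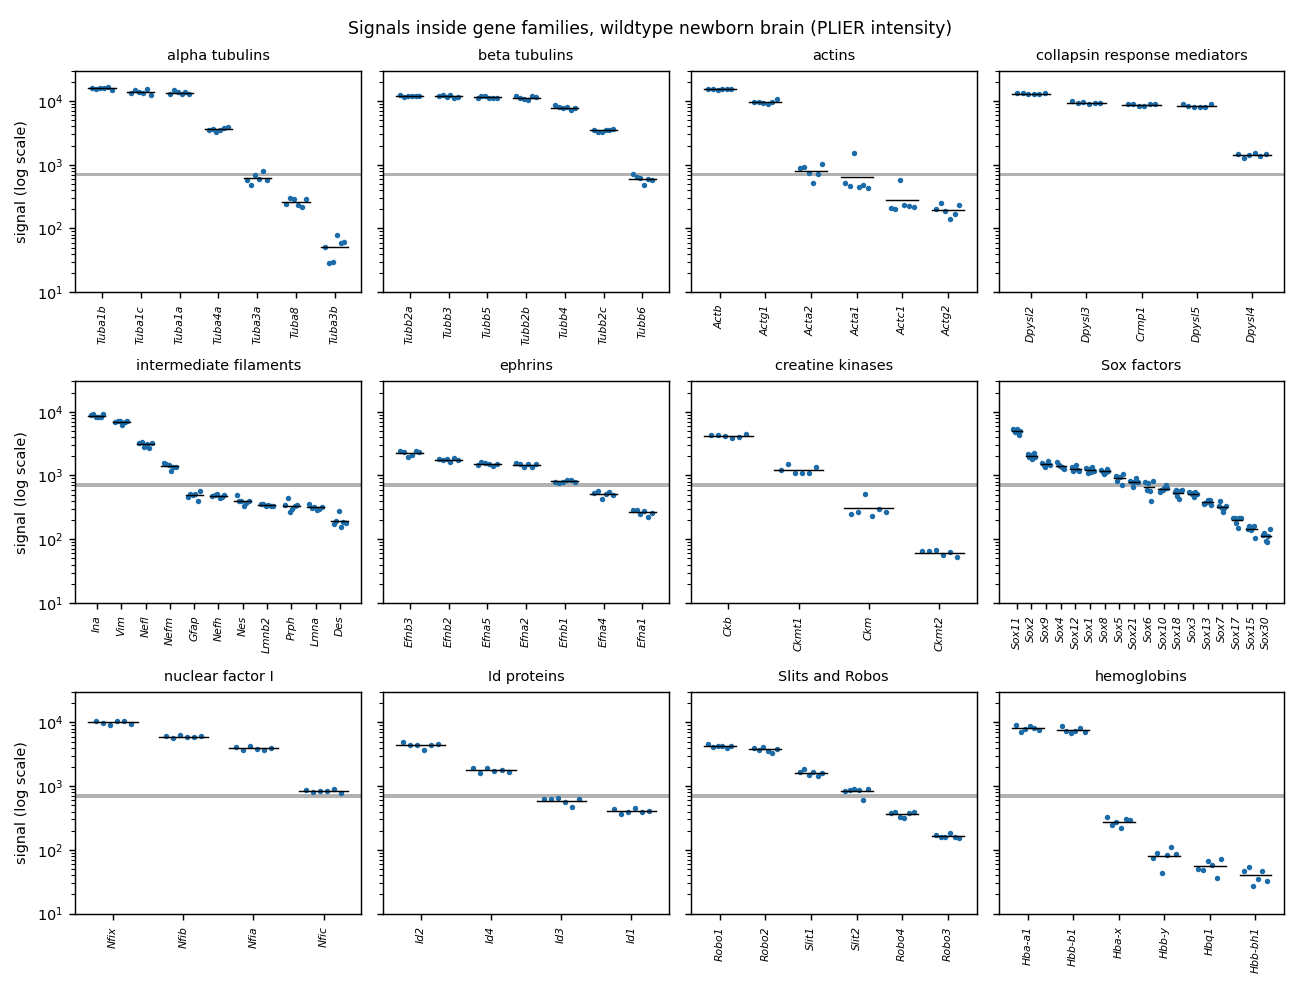
Signals of the members of 12 gene families in each of the 6 wildtype brains (points, litters 1 to 6 from left to right) with their mean (bar), on a logarithmic axis. The grey line is the range of the 95th percentile of the intron controls, 655 to 749; in most families 1 to 4 members stand well above it, and in the actins 1 point of Acta1 and 1 of Actc1 lie apart from the other 5.

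Markers of the cell types that a whole brain could hold were read against the 31.9% of all genes above in all brains. All 10 neuronal markers measured were above the controls in every brain, from Nefm (1397 ± 134) and Elavl4 (1935 ± 173) to Dcx (8824 ± 171) and Tubb3 (11869 ± 503). Of 10 markers of astrocytes and radial glia 8 were above, with Fabp7 (10743 ± 993), Slc1a3, a glutamate transporter (5316 ± 184), and the late astrocyte water channel Aqp4 (1137 ± 188). In the oligodendrocyte lineage 4 of 10 members (40.0%) were above in all brains, a share near that of all genes. Among them were the precursor genes Olig1 (1478 ± 163), Olig2 (807 ± 59.6) and Pdgfra (1143 ± 128). Cspg4 (386 to 585) and Sox10 (542 to 706), also genes of the early lineage, were above in none. Of the myelin genes, Cnp (705 to 1020.2) was above in 4 brains, and Mbp (485 ± 47), Mag (146 ± 13.5) and Mog (111 ± 13.7) were above in none. Of 8 microglial markers, the complement gene C1qb alone was above (1172 ± 134), with Csf1r at 501 ± 32.7 and Cx3cr1 at 486 ± 53.

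Against 31.9% of all genes measured, 4 of 8 endothelial markers, 3 of 8 of pericytes and smooth muscle, 3 of 9 of the choroid plexus, 5 of 10 of the meninges and 2 of 5 of erythroid cells were above in all brains. The endothelial glucose transporter Slc2a1 (3942 ± 463), the tight junction gene Cldn5 (1496 ± 96.1) and Cdh5 (1297 ± 98.7) were above, and Flt1 (559 ± 85) and Tek (446 ± 43.2) were not. Among pericyte genes, Vtn (2643 ± 233), Rgs5 (1533 ± 149) and Pdgfrb (1050.4 ± 68.4) were above. In the choroid plexus list, Ttr, Enpp2 (1625 ± 69.3) and Otx2 (934 ± 102) were above, and the other 6 members, Kl (142 ± 15.6) and Prlr (106 ± 12.6) among them, were not. The meningeal genes Ptgds (6204 ± 239), Igf2 (4484 ± 278) and Dcn (2788 ± 173) were above. Of 9 genes of dividing cells, only the replication clamp Pcna was (1927 ± 235), and none of its 15 probesets matches 1 place. No member of the lists for ependyma, pituitary, skeletal muscle, cartilage and bone, skin, olfactory epithelium or retina and lens was above in all brains. Of the liver list only Ttr was, with Alb, the serum albumin gene, at 65.3 ± 7.1.

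Lists of regional genes were read against the same 31.9%. Of the olfactory bulb list 2 of 6 (33.3%) were above, near that share. Thalamic and cortical Lhx2 (4153 ± 176) and thalamic Tcf7l2 (3104 ± 196) led a list of which 5 of 8 were above. Gbx2 (537 to 696) and Lef1 (539 to 624) of the same list were above in no brain. Of the striatal list 6 of 10 were above, among them Foxp1 (3008 ± 175), the enkephalin gene Penk (2705 ± 274) and the dopamine receptor gene Drd2 (987 ± 109), whereas Adora2a (406 ± 39.2) was not. Of the cerebellar list 5 of 10 were above in all brains and 3 in none. Zic1 (3598 ± 134), Zic2 (3329 ± 188), Reln, which encodes the secreted guidance protein reelin (3250.1 ± 94), and Barhl1 (892 ± 118) were above, and Atoh1, a factor of granule cell precursors (231 ± 39.5), was not. Of the hypothalamic list only Npy, also made by interneurons of other regions, was above (3030.5 ± 414), and the hormone genes Oxt (264 ± 37.3) and Avp (234 ± 37.7) were not. No Hox gene of 35 was above in all brains, the brightest of the listed hindbrain genes being Hoxb5 (583 to 777).

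Families named by symbol set these counts against the 31.9% of all genes. Of 95 cytosolic ribosomal protein genes 76 (80.0%) were above in all brains, although only 33.5% of their probesets match 1 place. Of 39 complex I genes 28 (71.8%) were above, of 37 proteasome genes 25 (67.6%) and of 59 Rab GTPase genes 36 (61.0%). Solute carriers (112 of 317, 35.3%), potassium channels (24 of 76, 31.6%) and genes named Zfp (83 of 263, 31.6%) lay near the share of all genes. Of 58 clustered protocadherins 21 (36.2%) were above. Olfactory receptors were above in all brains in 1 of 947 genes (0.106%), Olfr740, which has a single probeset that matches several places (762 to 1035). None of 148 vomeronasal receptors, 34 taste receptors, 32 interleukins, 19 Wnt ligands or 9 Pax genes was above in all brains, although 1 vomeronasal receptor and 1 Pax gene were in some, and cytochromes P450 were above in all brains in 2 of 83.

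The brains differed little from one another. Among the 5183 ranked genes above the controls in all brains, the median SD over brains of log2 signal, after each array was centred on its median, was 0.098, or 7.03%. Without centring it was 0.098 as well. It was 0.160 for ranked genes above in no brain. Genes above in every brain with all probesets on 1 chromosome were also split by number of probesets, ranked or not. The median SD was 0.129 for those with 1 probeset and 0.095 for those with 20 or more. An SD above 0.2 was found for 108 genes (2.08%). Among the lowest SDs were those of Top3b, a DNA topoisomerase (0.014), and Ndufa13, a complex I subunit (0.016), both named after their values were seen. Top3b had signals of 1236, 1199, 1147, 1095, 1067 and 1221 before centring.

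The 20 genes with the largest SD ran from 0.26 to 0.51, and the next gene also stood at 0.26. After each array was centred, the highest brain was that of litter 5 in 10 of the 20 genes and that of litter 1 or 6 in none. The largest SD was that of Mrps21, a mitochondrial ribosomal protein (0.51), with signals of 2453, 2938, 1514, 1046, 2340.1 and 2129.6. It was low in litters 3 and 4, and none of its 4 probesets matches 1 place. Ppif, the mitochondrial cyclophilin (0.39), had signals of 3135, 1735, 2919, 3127, 1767 and 2585, lowest in litters 2 and 5 and highest in litters 1 and 4, on 8 probesets that all match 1 place.

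The 10 genes highest in litter 5 after centring were Nr1d1, Per1, Mt1, Mt2, Sepp1, Arrdc4, Rpl7l1, Krtap16-8, Mfsd5 and Rbbp6. Before centring Krtap16-8 was highest in litter 4, and 3 of the 20 genes, Ppif, Sqle and Atpbd4, were highest in litter 1 or 6. Litter 5 had the lowest array median of gene signals, 384. Nr1d1, the clock repressor Rev-erb alpha, had signals of 1235, 1219.5, 1038, 1314, 1696 and 1113. Per1, a clock gene also induced by glucocorticoids, had signals of 984, 1166, 898, 964, 1373 and 947. Both were highest in litter 5, and the other 5 brains lay between 1038 and 1314 for Nr1d1 and between 898 and 1166 for Per1. The metallothionein genes Mt1, with signals of 2432, 2734, 2029, 1913, 3146 and 2812, and Mt2, with signals of 6024, 7216, 5131, 4738, 7871 and 6592, were lowest in litter 4 and highest in litter 5. Sepp1 (Selenop), which encodes a selenium carrier, ranged from 1121 to 1969 and Arrdc4, a glucose-responsive arrestin-like gene, from 992 to 1725, again lowest in litter 4 and highest in litter 5.

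Sqle, an enzyme of cholesterol synthesis, had signals of 2052, 1667, 1689, 2020.1, 1126 and 1939.7, lowest in litter 5. Bcl11a, a transcription factor of cortical neurons, ranged from 2222 to 3453, lowest in litter 2 and highest in litter 3. The linker histone gene H1f0 ranged from 1198 to 2235 and the cilia factor Rfx3 from 921 to 1605, both lowest in litter 5. The remaining genes were Tmem59l, Mxd1, Rpl7l1, Mrpl42, Krtap16-8, Atpbd4 (Dph6), Mfsd5 and Rbbp6, with SDs from 0.26 to 0.30. Without the brain of litter 5 the median SD of the ranked genes above the controls fell to 0.082, and 8 of the 20 genes stayed among the 20 most variable.

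**Figure D4:**
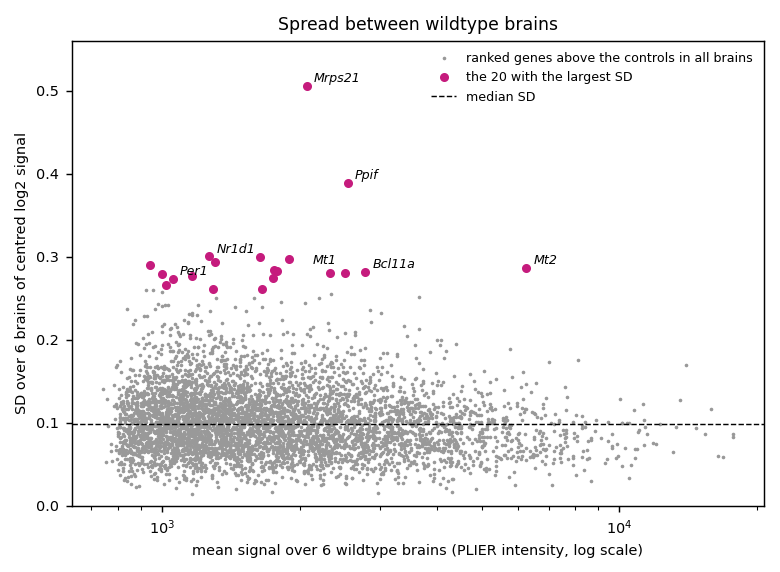
SD over the 6 wildtype brains of the centred log2 signal against the mean signal (logarithmic axis) for the 5183 ranked genes above the controls in all brains, 1 grey point per gene. The 20 genes with the largest SD are in purple, some with their names, and the dashed line is the median SD of 0.098; Mrps21 at 0.51 and Ppif at 0.39 stand above the rest.

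In 3 of 15214 ranked genes (0.0197%) 1 brain was above the controls and at least 2 times the next brain. Gh, the growth hormone of the anterior pituitary, had a signal of 5299.9 in litter 1 and of 218, 219, 184, 226 and 169 in litters 2 to 6. Of its 6 probesets 5 match 1 place. Cga, the common subunit of the glycoprotein hormones, was also highest in litter 1, at 466 against at most 91.5, and Pomc, the precursor of corticotropin, at 271 against at most 160.4, though both stayed under the threshold. Prl, the prolactin gene, ranged from 54.7 to 84.5. Summed over the 9 pituitary markers, the signal was 6729 in litter 1 and had a median of 1019 over the 6 brains, with a lowest value of 941. Without Gh and Cga no pituitary marker of litter 1 reached 300 units of signal.

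Genes of striated muscle were high in litter 3, to different extents. Acta1, skeletal alpha actin, had signals of 524, 469.9, 1557, 441, 483 and 434, and Myl1, a myosin light chain of fast muscle, of 152, 141, 939.7, 154, 150.4 and 127. Both were single high values among 5 low ones. Actc1, cardiac actin (571 against at most 237), Ckm, the muscle creatine kinase (519 against at most 295), the troponin gene Tnnt3 (414 against at most 217) and Des, desmin (280.2 against at most 193), were highest in the same brain while under the threshold. Actc1 and Des come from the lists of actins and intermediate filaments. Of the other muscle markers measured, Myh3 (923, next 889.9) and Mylpf (92.5, next 89) were also highest in litter 3 by small margins. Tnni2 (306, highest 309) and Mb (177, highest 181) were second highest there. The summed signal of the 8 muscle markers measured was 4928 in litter 3, with a median of 2276 and a lowest value of 2177. Neuronal markers summed to 63898 to 68068 over the 6 brains, a 1.07-fold range. The part of neighbouring tissue in these values was not tested. With probesets matching 1 place only, Gh alone met the rule, with a 3-fold limit Gh and Myl1 did, and with the mean over probesets Cga did as well, all alternatives chosen after seeing the data.

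**Figure D5:**
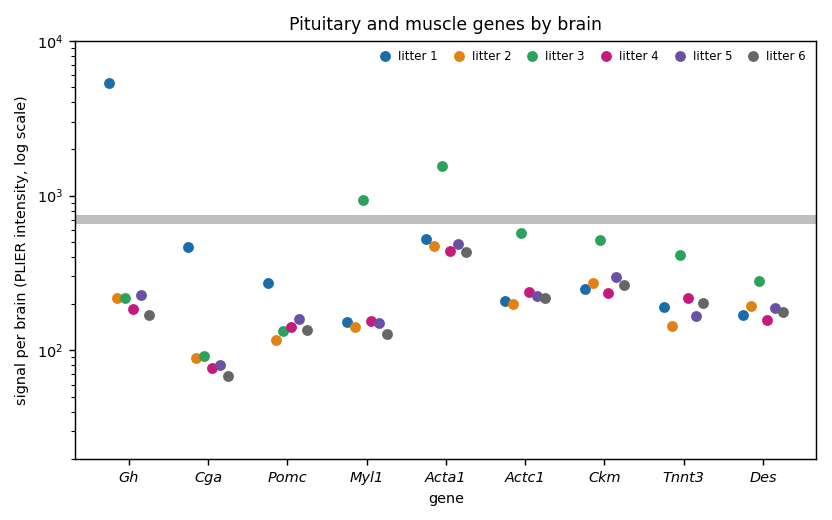
Signal in each wildtype brain, coloured by litter, of 3 pituitary genes and 6 muscle genes on a logarithmic axis. The grey band is the 95th percentile of the intron controls, 655 to 749; Gh in litter 1 (5300) and Acta1 (1557) and Myl1 (940) in litter 3 are the 3 points above it.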

How the data were processed

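Total RNA of the 6 wildtype brains had been hybridised to exon arrays. For the intensities they deposited, the authors used the Affymetrix Expression Console with quantile normalization of exon-level values and the PLIER summary, per the methods and the submitters' processing notes. These values are linear, with no logarithm taken. Depth does not apply to arrays; 6 brains and the brightness over the controls limit the precision. No source used here gives the build of the positions in the table, so that RefSeq (GRCm38.p6) served for names, matching 17176 of 17550 symbols, and for promoter windows.

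From these values, gene signals were medians over main probesets with a symbol, 84.3% of which match 1 place. The methods' rejection of probesets with a relative standard deviation above 0.4 was left to an alternative, because it would cut the spread described. A gene was called when all 6 arrays put it above the intron controls' 95th percentile, and a limma test of that distance was an alternative. Logarithms used a pseudocount of 16. Named genes were the first 30 by mean signal, the 20 with the largest SD, and the members of 33 families and 24 marker lists. Some listed genes are not reported singly here. Members and lists were chosen with earlier results of these data known. Neighbours inside families were compared by an exact two-sided sign-flip test over the 6 brains. Nothing in the labels says more of the replicates than the litter. Python 3.11.15, numpy 2.4.6, pandas 2.3.3, matplotlib 3.10.9, R 4.3.3 and limma 3.58.1 were used, and the scripts were tested on simulated data.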

Additional observations from a re-analysis of the deposited data

Results flagged for a closer look

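In each of 449 named genes and 24 marker lists, the highest and the lowest of the 6 brains were compared with the others by Dixon's ratio of gap to range at its 95% critical value. Chance alone sets about 1 group in 20 apart at that value. The 449 genes include the 20 chosen for the largest SD. A brain stood apart in 26 genes, a share close to 1 in 20, and in 3 lists, a share above it. Of the genes, 3 were apart in litter 1, 3 in litter 2, 6 in litter 3, 6 in litter 4, 6 in litter 5 and 2 in litter 6.

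Pituitary genes stood high in litter 1. Gh had a signal of 5299.9, Cga of 466 and Pomc of 271, and the mean log2 deviation of the pituitary list was 0.73, against -0.31 to 0.06 in the other brains. Muscle genes stood high in litter 3, where Acta1 reached 1557, Myl1 939.7, Actc1 571, Ckm 519, Tnnt3 414 and Des 280.2, and the mean deviation of the muscle list was 0.80, against -0.31 to 0.07 elsewhere.

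In litter 4, Vim was low at 6104, Ywhae, a 14-3-3 protein, at 6396, the chaperones Hsp90aa1 at 4808 and Hspa4 at 1802, and, under the controls, Mki67 at 81.7 and Myh11 at 121. The list for pericytes and smooth muscle had its low value there, a mean deviation of -0.21 against 0.02 to 0.07 in the other brains. In litter 5 the guidance genes Dcc (1659), Unc5d (864) and Slit2 (598), the striatal Rgs9 (651) and Atpbd4 (729) were low, and Rpl7l1 was high (2351). In litter 2 Barhl1 (1123), Vamp1 (906) and Sncg (605) were high, and in litter 6 Gpm6b (6579) and Slc22a6 (898).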

How the results depend on the processing

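No paired analysis was possible because only the wildtype arrays were used, so that no groups sharing litters were compared. Family members were compared within brains.

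The 5604 genes above the controls became 12702 with the control median as the threshold and 597 with the 99th percentile. Other settings gave 4419 to 7480 genes, among them 5773 by limma and 6893 with control probesets that match 1 place, an alternative chosen after seeing the data. Of the 30 brightest genes, 12 stayed with probesets matching 1 place, 14 with at least 8 probesets and 22 to 30 otherwise. Of 143 family pairs with 1 order in all brains, 109 (of 119 measured) to 143 kept the sign of their mean difference, whether or not every brain had that order. The median SD ranged from 0.0766 to 0.0997 over settings other than left-out brains. Of the 20 most variable genes, 10 stayed with the mean over probesets, 5 with the 75th percentile, 10 with probesets matching 1 place and 13 with at least 8 probesets. The 3 genes high in 1 brain only became 1 (Gh) with probesets matching 1 place, 2 with a 3-fold limit and 4 with the mean over probesets, which adds Cga, also chosen after seeing the data. Leaving out 1 brain gave 29 to 30 of the brightest genes and a median SD of 0.082 to 0.101. It kept 8 to 18 of the most variable genes, lowest without litter 5. It also gave 5604 to 5785 genes above and 143 of 143 pairs, but neither number could have fallen. A gene above in all brains stays above when 1 brain is left out. A pair with 1 order in all brains likewise keeps the sign of its mean difference. These 2 results therefore do not test how far the counts depend on single brains.

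The order of the first pair of a family turned in 11 of 440 values. With the mean over probesets the log2 differences were -0.11 for Gpm6a over Cd24a, -0.13 for Aldoc over Aldoa, -0.60 for Cox6a1 over Cox8a, -0.15 for Snap25 over Vamp2, -0.12 for Syn1 over Syp and -1.12 for Fth1 over Aplp1. With the 75th percentile they were -0.053 for Tubb2a over Tubb3, -0.23 for Tmsb10 over Tmsb4x and -0.53 for Aldoc over Aldoa. With probesets matching 1 place they were -4.47 for Eno1 over Eno2 and -0.64 for Aldoc over Aldoa. In 16 values a pair gained 1 order in all brains, among them Tubb2a over Tubb3 with 1-place probesets (0.77), Syt1 over Syt5 with the 75th percentile (0.53) and Hba-a1 over Hbb-b1 with the mean (0.71). Without turning, 2 pairs no longer had 1 order in all brains, Pfkp over Pfkm with the mean over probesets (0.053) and Robo1 over Robo2 with the 75th percentile (0.032). The cause was not tested. Genes near the threshold are limited by the brightness of the controls.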
